A study of Mus musculus with 20 samples.

Results

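Angiotensin II (AngII) was compared with saline in the abdominal aorta of C57BL/6 mice that carry wild type Rab22a. AngII is the peptide hormone that constricts arteries, raises blood pressure and drives remodelling of the vessel wall. The 10 wild type libraries, 1 aorta each, were taken by their group labels from the 20 libraries of the study. They comprised 5 aortas of mice given AngII (500 ng/kg/min) for 14 days and 5 aortas of mice given saline (NS) for 14 days. The other 10 libraries came from Rab22a knockout mice, 5 with AngII and 5 with saline. Their values are given only where the effect of the genotype is. They also entered the filter of genes and the shared estimate of spread behind every standard error and p-value of the main fit. Going by the study's title, its question was whether loss of Rab22a, a GTPase of endosomal traffic, prevents the hypertension caused by AngII by way of the AngII type 1 receptor. Total RNA had been depleted of ribosomal RNA before library construction. The labels used here give neither age nor sex.

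AngII acts on smooth muscle mainly through the type 1 receptor, a receptor coupled to Gq that releases calcium from the endoplasmic reticulum and activates MAP kinases. Over days the wall of an infused aorta is known to thicken, to deposit matrix and to take up leukocytes. The hormone also acts on the adrenal gland, the kidney, the heart and the bone marrow, so an infused animal differs from a control in more than its arteries.

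Gene levels are given as FPKM, a sequencing count divided by the length of the transcript and by the size of the library, summed over the annotated transcripts of a gene, and differences are of log2(FPKM + 1), AngII minus saline, with the standard error. The wild type libraries implied 68700000 to 77400000 reads each, and 13342 to 14280 genes per library reached 1 FPKM. Smooth muscle markers were high in every aorta, with Myh11, smooth muscle myosin, at 202 to 393 FPKM in AngII and 299 to 401 FPKM in saline aortas. The level of 29 contractile genes, as the mean of log2(FPKM + 1), ran over 6.22 to 7.06 in AngII and 6.29 to 6.87 in saline aortas. Tissue beside the wall was present as well. The level of 32 white adipocyte genes ran over 7.05 to 7.87 in AngII and 7.04 to 7.71 in saline aortas, and that of 25 skeletal muscle genes over 1.49 to 6.88 in AngII and 1.28 to 7.56 in saline aortas. Skeletal actin, Acta1, looked up after its list was seen to vary, was 2.90, 1723, 390.5, 409 and 12.1 FPKM in AngII aortas 1 to 5 and 134, 813, 3.53, 1.08 and 3084 FPKM in saline aortas 1 to 5. Skeletal muscle RNA thus varied by orders of magnitude inside both groups. In whole tissue, fewer cells of a type and less RNA per cell cannot be told apart.

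Of 15010 genes tested with limma, 0 (0%) had a Benjamini-Hochberg adjusted p under 0.05, and the smallest adjusted p was 0.938. At an unadjusted p under 0.05 stood 221 genes higher (1.47%) and 237 lower (1.58%) under AngII. Both directions together made 458 genes (3.05%), a share under the 0.05 that this threshold gives on average where no gene differs. In 50 genes (0.333%) all 5 AngII values lay above all 5 saline values, and in 42 (0.28%) they lay below. Together these were 92 genes (0.613%). Some genes come apart in this way where nothing differs, so groups that do not overlap are not by themselves evidence of an effect. A positive difference was found in 53.6% of genes, and the median difference of all genes was 0.02. AngII mouse 3 bore most on these counts: without it 411 genes stood higher and 381 lower at that p, and 331 and 160 were apart. These shares are the background for every list count that follows. Genes were named by a rule that took the smallest p-values, the largest differences and 2 genes of each list, and a gene named outside it, after its values were seen, is marked as such. No gene named below passed the test, so each is given as values and not as a change, and the unadjusted p-values are limma's.

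The endoplasmic reticulum genes are taken first because the gene with the clearest pattern among them carries a known regulatory sequence. Proteins enter the secretory route through the endoplasmic reticulum, and when unfolded proteins pile up there the transcription factors ATF6, XBP1 and ATF4 switch on chaperones and degradation factors. ATF6 and XBP1 act through short elements in promoters, named the endoplasmic reticulum stress elements. Both were searched on both strands in the RefSeq promoters of assembly GRCm38.p6, from 250 bases before to 50 after each start. The first element, ERSE (CCAAT and CCACG with 9 bases between them), was found in 39 of 32851 promoters (0.119%), and ERSE-II (ATTGG and CCACG with 1 base between them) in 12 (0.0365%). Of the 34 genes of the unfolded protein response list that were tested, 30 had a promoter in the table. Within these 30, ERSE was found in 9 genes and ERSE-II in 2, Herpud1 and Dnajb11. The promoters of Herpud1 (ERSE-II), Creld2 (ERSE on the other strand) and Hspa5 (ERSE) are shown 5′ to 3′ along the gene, with the element in capitals, because their differences ran from near 0 to that of the gene with the clearest pattern. The lines cover chr8:94386179-94386428, chr15:88819396-88819645 and chr2:34771840-34772089, all on the plus strand.
Herpud1: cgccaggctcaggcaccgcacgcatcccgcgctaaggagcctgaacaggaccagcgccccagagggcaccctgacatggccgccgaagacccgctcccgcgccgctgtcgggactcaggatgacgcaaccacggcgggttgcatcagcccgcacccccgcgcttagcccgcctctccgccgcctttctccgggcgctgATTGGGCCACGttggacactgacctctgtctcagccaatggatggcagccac
Creld2: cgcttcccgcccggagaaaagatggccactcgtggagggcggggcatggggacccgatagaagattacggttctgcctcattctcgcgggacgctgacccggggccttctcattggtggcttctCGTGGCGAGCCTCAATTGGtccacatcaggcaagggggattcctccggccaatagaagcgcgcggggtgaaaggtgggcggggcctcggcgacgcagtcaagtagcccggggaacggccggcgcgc
Hspa5: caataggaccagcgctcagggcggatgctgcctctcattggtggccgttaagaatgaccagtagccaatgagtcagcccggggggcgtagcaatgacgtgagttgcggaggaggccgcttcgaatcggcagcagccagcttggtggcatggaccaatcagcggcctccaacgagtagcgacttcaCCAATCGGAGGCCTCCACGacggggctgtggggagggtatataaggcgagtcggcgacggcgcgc

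Herpud1 (chr8:94386438-94395377, mm10) encodes a membrane protein that feeds unfolded proteins of the endoplasmic reticulum into degradation. It measured 43.3, 24.3, 37.5, 21.7 and 39.1 FPKM in AngII aortas 1 to 5, against 18.4, 17.2, 23.8, 17.9 and 16.6 FPKM in saline aortas 1 to 5. The AngII values of mice 1, 3 and 5 were the high ones, and only AngII mouse 4 lay inside the saline range, below the highest saline aorta. The difference was 0.75 ± 0.18 with an unadjusted p of 0.000692. Creld2, Hspa5, Ddit3 and Sdf2l1 were named after their values were seen. Creld2, a chaperone-like protein induced in the same response, measured 25.6, 30.2, 17.8, 21.6 and 35.5 FPKM under AngII and 17.7, 14.8, 22.3, 24.98 and 16.02 FPKM under saline. Hspa5, the main chaperone of the compartment (BiP), measured 90.8, 91.8, 77.2, 79.6 and 129 FPKM under AngII and 75.1, 70.4, 128, 93.5 and 78.8 FPKM under saline. The groups of both genes overlapped widely (0.41 ± 0.34 and 0.08 ± 0.24). Whether the differences of these 2 genes differ from each other was not tested. An element in a promoter is a description of its letters and shows neither binding nor cause.

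Over the whole list 26 of 34 genes had a positive difference, against 53.6% of all genes, and the median was 0.12. Unadjusted p-values under 0.05 were found for 4 genes higher and 1 lower. Atf3, a stress-induced transcription factor, measured 23.1, 6.19, 13.8, 5.15 and 11.1 FPKM under AngII and 8.72, 5.56, 3.33, 2.84 and 6.54 FPKM under saline. Ddit3 (CHOP), a factor of prolonged stress, measured 31.8, 32.9, 33.8, 31.2 and 25.5 FPKM under AngII and 26.98, 27.9, 22.5, 22.9 and 29.4 FPKM under saline, with AngII mouse 5 inside the saline range and the other 4 above it. Sdf2l1, another luminal chaperone partner, ranged over 19.6 to 50.2 FPKM under AngII and 11.2 to 29.1 FPKM under saline. Leaving out 1 library at a time put the list median between 0.06 (without saline mouse 5) and 0.19 (without saline mouse 1), with 23 to 29 genes positive. Of the 37 genes that carry proteins onward to the Golgi, 27 had a positive difference (median 0.09), and without AngII mouse 5 it was 23 (median 0.05).

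Chaperones of the cytosol stood beside them. Hspb1 (chr5:135887919-135889563, mm10), the small heat shock protein that stabilises actin filaments in smooth muscle, measured 280.5, 236, 190.3, 265 and 162 FPKM under AngII, against 153, 88.3, 114, 77.2 and 145 FPKM under saline. The groups did not overlap, the lowest AngII aorta (mouse 5) lying just above the highest saline aorta (mouse 1). Its difference was 0.99 ± 0.39 (unadjusted p = 0.0204). Hspa8, the constitutive cytosolic Hsp70, ranged over 390 to 575 FPKM in AngII and 230.4 to 438 FPKM in saline aortas, and 23 of 31 heat shock genes had a positive difference. Their median was 0.09, or 0.13 without AngII mouse 5 and 0.15 without saline mouse 5. The metallothionein Mt2, which binds zinc and is induced by metals, stress and glucocorticoids, measured 139.9, 71.3, 28.7, 69.8 and 156 FPKM under AngII and 37.03, 51.8, 33.8, 33.3 and 52.8 FPKM under saline. AngII mouse 3 had the lowest Mt2 of all 10 aortas and the other 4 lay above every saline aorta. Mt1 measured 343, 282, 125, 216 and 263 FPKM under AngII and 181, 162, 162, 119 and 197 FPKM under saline, and again every AngII aorta but that of mouse 3 exceeded the saline range.

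**Figure D1:**
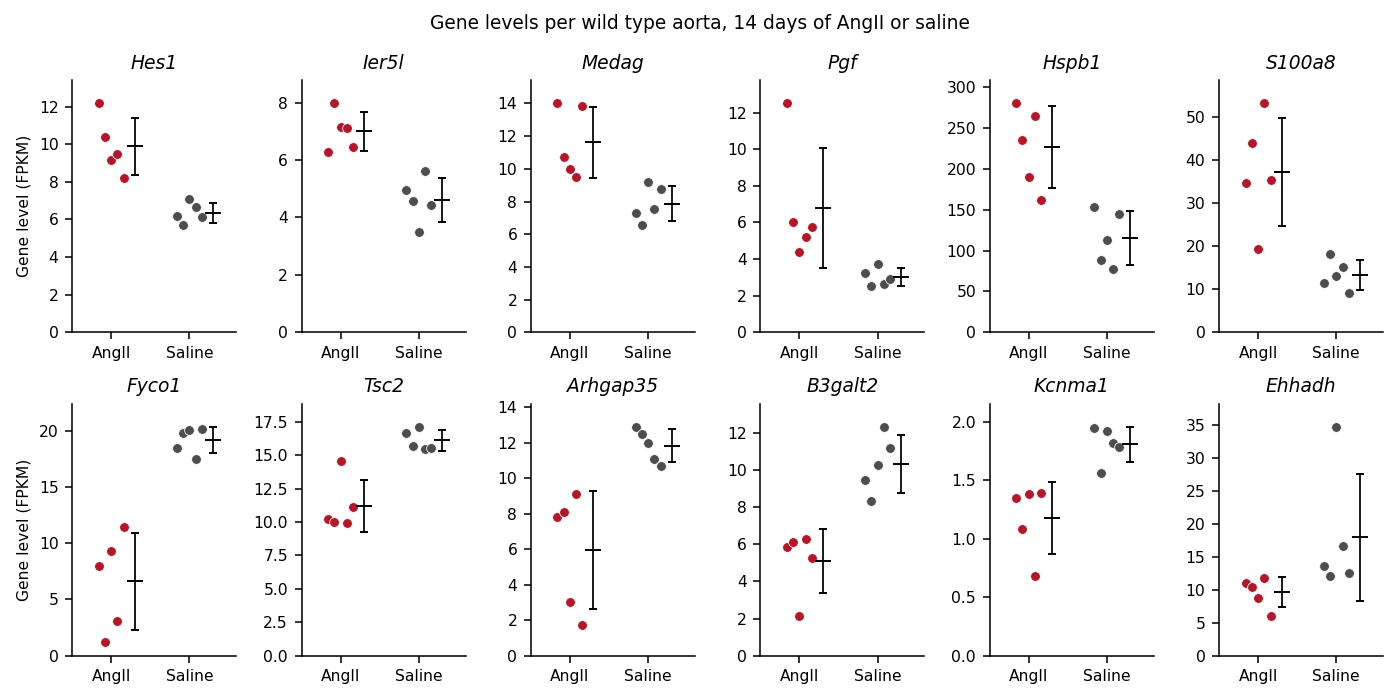
Level in FPKM (vertical axes, from 0) of 12 genes in each wild type aorta, AngII left and saline right, with 1 point per mouse and the mean ± SD beside the points. The upper 6 genes were higher in every AngII aorta than in any saline aorta, and the lower 6 were lower in every AngII aorta. None of the 12 passed the test over all genes.

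Transcription factors and genes of early signalling gave several of the most even patterns. Hes1 (chr16:30064384-30067796, mm10) is the repressor that Notch signalling induces, and serum and growth factors induce it as well. It measured 12.2, 10.4, 9.18, 9.49 and 8.18 FPKM in AngII aortas and 6.19, 5.69, 7.08, 6.67 and 6.13 FPKM in saline aortas. The groups did not overlap and the spread inside each was small, with means of 9.88 ± 1.51 and 6.35 ± 0.535 FPKM (SD, n = 5 each). Its difference was 0.56 ± 0.13 (unadjusted p = 0.000353), the smallest p among the named genes that stood higher. Of the 37 Wnt and Notch genes, 17 had a positive difference.

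Ier5l, an immediate early response gene, measured 6.28, 7.98, 7.15, 7.12 and 6.45 FPKM under AngII and 4.94, 4.57, 3.48, 5.60 and 4.45 FPKM under saline, again without overlap. Sertad1, a cofactor of E2F and cyclin-dependent kinase 4, measured 21.4, 23.6, 14.7, 19.7 and 18.9 FPKM under AngII and 14.1, 12.3, 13.98, 15.2 and 12.8 FPKM under saline, and AngII mouse 3 alone lay within the saline range. Jund, a subunit of AP-1, measured 125, 127, 113, 109.9 and 103 FPKM under AngII and 110.5, 69.7, 87.5, 98.8 and 77.3 FPKM under saline. In that gene 3 AngII aortas exceeded every saline aorta, while mice 4 and 5 lay within the saline range. Irf2, a factor that restrains interferon genes, measured 17.1, 18.2, 13.4, 14.3 and 24.9 FPKM under AngII and 6.09, 9.63, 5.78, 16.4 and 8.06 FPKM under saline, where saline mouse 4 reached the AngII range and the others did not. Among 37 immediate early genes 28 had a positive difference and the median was 0.26. The median was lowest without AngII mouse 1, at 0.12 with 25 positive, and without saline mouse 5, at 0.13 with 23 positive.

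The next group was made up of secreted and surface proteins of injured vessels. Pgf (chr12:85166635-85177790, mm10), placental growth factor, a ligand of the VEGF receptor Flt1, measured 12.5, 6.01, 4.38, 5.21 and 5.73 FPKM under AngII and 3.25, 2.53, 3.71, 2.65 and 2.89 FPKM under saline. The groups did not overlap, and AngII mouse 1 stood apart above the rest of its group. The difference was 0.88 ± 0.26 (unadjusted p = 0.00365). Of 36 growth factors 24 had a positive difference and the median was 0.05. It was higher without AngII mouse 3 or 5 or saline mouse 1, 3 or 5, at most 0.12.

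A further 2 genes, chosen after their values were seen, had the same form. Tnfrsf12a, the receptor for the cytokine TWEAK, measured 87.7, 48.7, 47.2, 43.9 and 42.2 FPKM under AngII and 31.4, 33.2, 15.2, 23.3 and 41.1 FPKM under saline. Tmem100, a membrane protein of endothelium downstream of BMP9 and ALK1, measured 11.3, 6.64, 6.84, 8.14 and 12.7 FPKM under AngII and 5.10, 5.41, 6.56, 2.63 and 6.53 FPKM under saline. In both genes the AngII and saline aortas did not overlap, although the nearest AngII and saline aortas almost met.

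Igfbp2, which binds insulin-like growth factors, was far more uneven. It measured 73.9, 31.9, 7.51, 41.7 and 9.90 FPKM under AngII and 5.85, 2.98, 17.6, 4.69 and 8.05 FPKM under saline, with AngII mice 3 and 5 inside the saline range and mice 1, 2 and 4 above it. Its difference was 1.71 ± 0.61 (unadjusted p = 0.0117). Medag, a gene of fibroblasts and fat precursors, was steadier, at 14.02, 10.7, 10.02, 9.49 and 13.8 FPKM under AngII and 7.32, 6.58, 9.21, 7.54 and 8.74 FPKM under saline without overlap. Of 24 adventitial fibroblast genes, Medag among them, 20 had a positive difference (median 0.23).

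Matrix genes form the known core of the aortic response to AngII. Fibronectin (Fn1, chr1:71585520-71653200, mm10), the adhesive glycoprotein on which other matrix fibres assemble, measured 278, 157, 150, 179 and 118 FPKM under AngII and 105, 43.4, 96.9, 80.9 and 108 FPKM under saline when all its transcripts were summed. All AngII aortas stood above all saline aortas. Most of that sum lay in a single annotated transcript, Fn1-202, which GENCODE classes as a retained intron and which held 85.5% of the level. It measured 250.1, 145, 119.7, 163 and 105 FPKM under AngII and 91.03, 3.29, 82.9, 71.01 and 95.8 FPKM under saline, without overlap, and saline mouse 2 stood far below the rest. The protein-coding transcripts together held 10.97% of the level and measured 18.8, 8.02, 16.1, 13.5 and 11.5 FPKM under AngII and 9.72, 38.7, 12.1, 7.94 and 8.13 FPKM under saline. In these saline mouse 2 was the highest of all 10 aortas and the groups overlapped. The difference of the gene was 1.03 ± 0.31 over all transcripts and 0.06 over its protein-coding transcripts alone. A division of reads among overlapping transcripts and a difference in splicing cannot be told apart from these values.

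**Figure D2:**
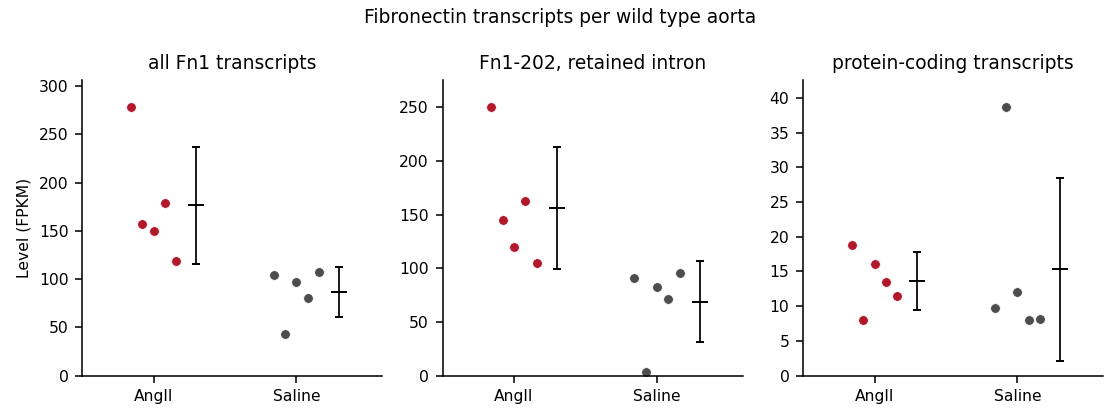
Level in FPKM of fibronectin in each wild type aorta, AngII left and saline right, for all transcripts summed, for the retained-intron transcript Fn1-202 and for the protein-coding transcripts, with mean ± SD. The groups are apart in the first and second panels, where saline mouse 2 is the lowest, and overlap in the third, where it is the highest.

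Of the 31 genes of elastic fibres and matricellular proteins 25 had a positive difference, with a median of 0.33. Elastin, Eln, named after its values were seen, measured 409.5, 190.2, 282, 305 and 186 FPKM under AngII and 139, 112, 158, 133 and 182 FPKM under saline. The groups did not overlap, though AngII mice 2 and 5 lay only slightly above saline mouse 5. Ccn5 (Wisp2), a matricellular protein that restrains smooth muscle growth, measured 131, 38.4, 29.5, 53.1 and 35.4 FPKM under AngII and 19.7, 20.2, 22.7, 20.4 and 29.7 FPKM under saline, with AngII mouse 1 far above and AngII mouse 3 just below the highest saline aorta. Timp1, an inhibitor of metalloproteinases, measured 17.3, 11.8, 6.17, 11.8 and 40.6 FPKM under AngII and 5.03, 4.96, 4.92, 4.54 and 6.51 FPKM under saline, highest in AngII mouse 5 and within the saline range in AngII mouse 3.

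Of the collagen chains themselves 17 of 24 had a positive difference (median 0.11), with 0 at an unadjusted p under 0.05 and 0 apart. Of 40 genes of TGF-beta and BMP signalling 19 had a positive difference (median -0.005). Enzymes that finish collagen had mostly positive differences, with 24 of 28 positive (median 0.22). P4ha1, a subunit of prolyl 4-hydroxylase, measured 32.5, 26.8, 20.2, 24.8 and 28.9 FPKM under AngII and 18.6, 15.6, 20.1, 22.1 and 18.2 FPKM under saline, a difference of 0.47 ± 0.12 with an unadjusted p of 0.00125. AngII mouse 3 alone lay in the saline range. The secreted Wnt antagonists Sfrp2, named after its values were seen, and Sfrp4 are made by fibroblasts. Sfrp2 measured 76.5, 48.4, 50.6, 54.05 and 57.2 FPKM under AngII and 34.6, 21.9, 40.3, 37.3 and 28.9 FPKM under saline, without overlap. Sfrp4 measured 43.3, 15.9, 17.9, 20.6 and 63.9 FPKM under AngII and 12.3, 13.4, 18.4, 16.1 and 17.9 FPKM under saline, with 2 AngII aortas far above the others, and its difference was 0.81, or 0.52 without AngII mouse 5.

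Genes of cartilage and bone, which smooth muscle cells are known to express when a wall calcifies, had list levels that did not overlap between the groups. The level of the 16 genes ran over 3.07 to 3.43 in AngII and 2.91 to 3.05 in saline aortas. Positive differences were found in 12 of them, and 0 had an unadjusted p under 0.05 in either direction. The median was 0.26, or 0.16 without saline mouse 5. Tnfrsf11b, osteoprotegerin, the decoy receptor that restrains osteoclasts, measured 3.33, 2.84, 1.99, 3.68 and 3.17 FPKM under AngII and 1.67, 1.80, 1.36, 1.72 and 1.38 FPKM under saline, without overlap (difference 0.62 ± 0.32). Comp, a cartilage matrix protein that smooth muscle makes, measured 24.1, 14.8, 14.9, 16.4 and 11.2 FPKM under AngII and 6.69, 8.61, 12.3, 12.2 and 8.90 FPKM under saline, with AngII mouse 5 alone inside the saline range.

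**Figure D3:**
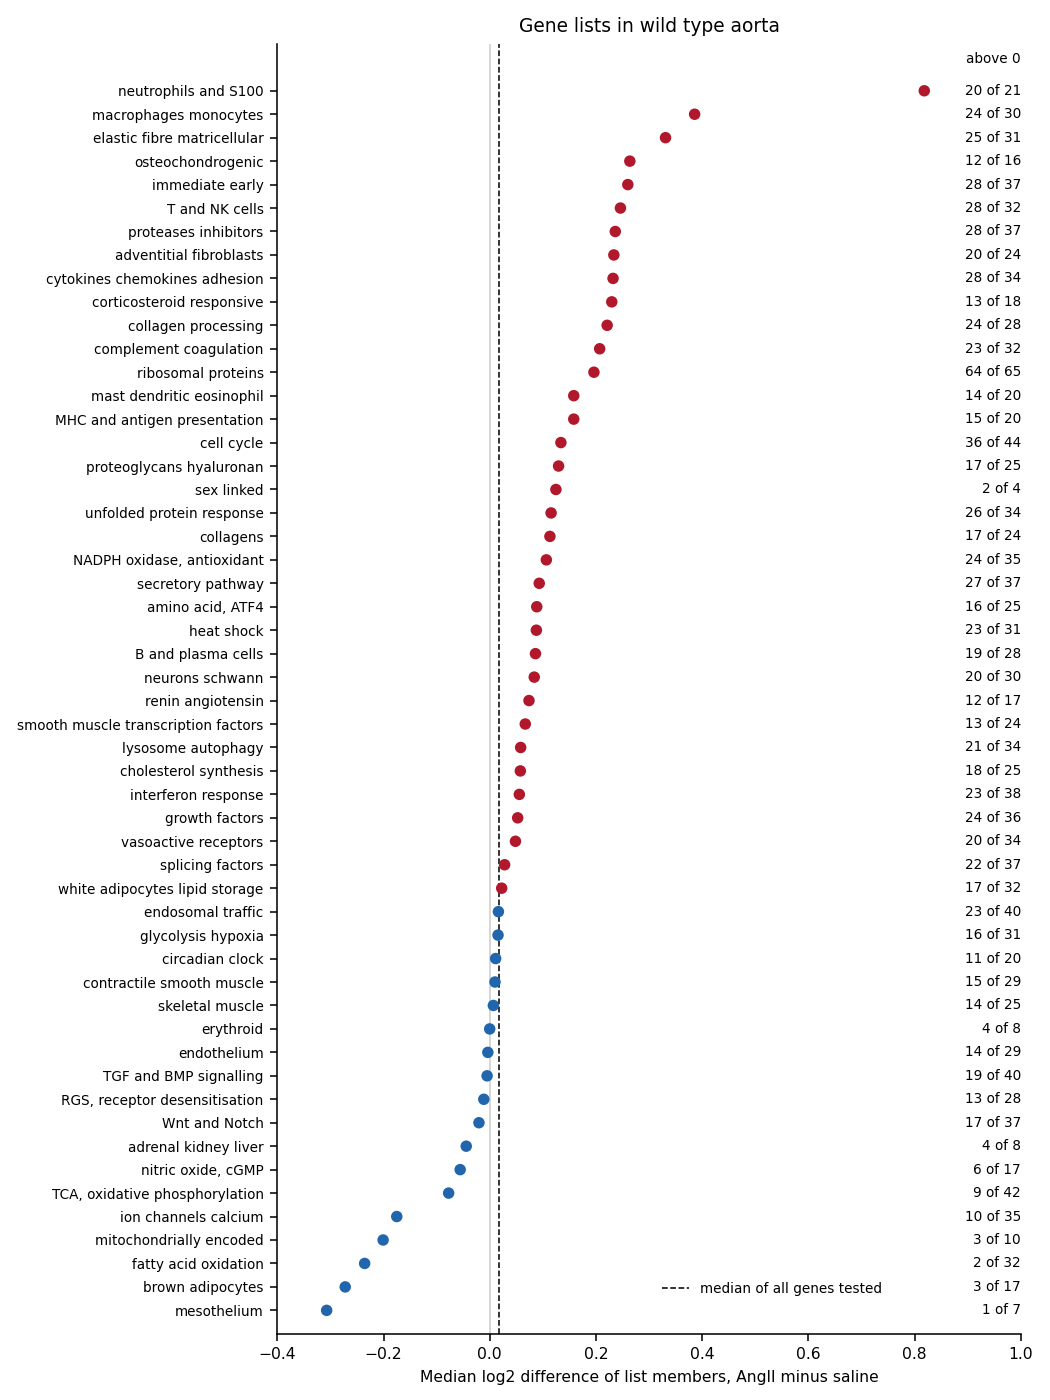
Median difference in log2(FPKM + 1), AngII minus saline, over the tested members of 53 of the 54 gene lists in wild type aorta, ordered by median, with the number of members above 0 at the right and the median of all genes tested (0.02) as a dashed line. Red points lie above that line and blue points below it. Neutrophil and S100 genes lie farthest to the right at 0.82, and mesothelial genes farthest to the left at -0.31.

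The genes that stood lower under AngII were led by Fyco1 (chr9:123789500-123851899, mm10), which encodes an adaptor that links autophagosomes and late endosomes to kinesin for transport along microtubules. It measured 7.92, 1.24, 9.28, 3.09 and 11.5 FPKM in AngII aortas, against 18.4, 19.8, 20.1, 17.5 and 20.1 FPKM in saline aortas. The saline aortas lay close together, the AngII aortas were scattered, and the groups lay far apart. The difference was -1.66 ± 0.33, with the smallest p of all genes (adjusted p = 0.938 with limma). With library weights the adjusted p was 0.0468, and under the other alternatives it ran from 0.126 to 1.

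Arhgap35 (chr7:16493719-16614993, mm10), a GTPase-activating protein that acts on regulators of the actin cytoskeleton, measured 7.81, 8.08, 2.996, 9.11 and 1.71 FPKM under AngII and 12.9, 12.5, 11.98, 11.1 and 10.7 FPKM under saline. The groups did not overlap and AngII mice 3 and 5 were the lowest.

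Tsc2 (chr17:24595816-24632630, mm10), tuberin, the brake on the growth kinase mTORC1, measured 10.2, 10.02, 14.6, 9.97 and 11.1 FPKM under AngII and 16.7, 15.7, 17.1, 15.4 and 15.6 FPKM under saline. The groups did not overlap and AngII mouse 3 was the nearest to saline. B3galt2, a galactosyltransferase of glycoprotein chains, measured 5.85, 6.12, 2.11, 6.27 and 5.24 FPKM under AngII and 9.46, 8.33, 10.3, 12.3 and 11.2 FPKM under saline, also without overlap. Irs1, the adaptor of the insulin receptor, was chosen after its values were seen and measured 3.46, 2.97, 3.67, 2.92 and 2.65 FPKM under AngII and 4.50, 4.60, 4.01, 5.20 and 5.76 FPKM under saline. The highest AngII aorta lay below the lowest saline aorta. Slc43a1, a carrier of large neutral amino acids, was likewise chosen by its values and measured 5.52, 3.27, 4.80, 3.79 and 3.59 FPKM under AngII and 6.32, 6.37, 13.9, 7.28 and 6.93 FPKM under saline, with saline mouse 3 well above its group.

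Other genes stood lower in all but 1 or a few aortas. Rnf11, a ubiquitin ligase component of NF-kappaB and TGF-beta signalling, measured 38.98, 15.1, 13.3, 12.5 and 13.5 FPKM under AngII and 34.7, 33.9, 33.5, 41.9 and 39.7 FPKM under saline, where AngII mouse 1 had a saline-like value. Stat5a, a transcription factor of cytokine receptors, measured 4.998, 13.6, 6.49, 5.80 and 7.10 FPKM under AngII and 18.9, 9.95, 17.6, 12.2 and 16.4 FPKM under saline, where AngII mouse 2 exceeded 2 saline aortas. Sik2, a kinase that restrains CREB coactivators, measured 19.4, 14.2, 34.3, 20.4 and 20.5 FPKM under AngII and 30.9, 31.1, 37.95, 40.4 and 28.4 FPKM under saline, where AngII mouse 3 lay among the saline aortas. The aorta that broke the pattern was thus that of AngII mouse 1, 2 and 3 in turn. AngII mouse 3 was also the exception in the lower genes Bag6 (35.6 FPKM, saline 27.3 to 35.3 FPKM) and Inppl1 (19.97 FPKM, saline 16.5 to 24.3 FPKM). It was the exception as well in Sertad1, P4ha1 and Timp1 above.

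The clock genes Clock, an activator, and Ciart, a repressor, stood in opposite directions. Clock measured 3.64, 3.56, 6.56, 3.45 and 5.97 FPKM under AngII and 9.28, 5.85, 10.1, 7.53 and 6.72 FPKM under saline. Ciart measured 7.54, 5.62, 4.75, 5.02 and 2.21 FPKM under AngII and 2.33, 2.51, 3.11, 1.40 and 3.74 FPKM under saline. AngII mice 3 and 5 overlapped with saline in Clock and AngII mouse 5 in Ciart. The list of 20 clock genes had 11 positive differences and a median of 0.01, which lay between -0.04 and 0.07 when 1 library was left out. The time of day of dissection is not stated in the labels used here.

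Ion channels and calcium handling set the tone of an artery, since calcium entry and release drive contraction and potassium efflux opposes it. Of 35 such genes only 10 had a positive difference and 25 a negative one, and the median was -0.18. The level of the list was 2.85, 2.87, 3.09, 2.86 and 2.87 in AngII aortas 1 to 5 and 3.09, 2.98, 3.13, 2.93 and 3.08 in saline aortas 1 to 5. In 4 AngII aortas it lay below every saline aorta, and in AngII mouse 3 it was among the highest. Leaving out 1 library at a time put the median between -0.22 (without AngII mouse 3) and -0.09 (without AngII mouse 2 or saline mouse 3).

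Itpr2, an inositol trisphosphate receptor that releases stored calcium, measured 5.67, 6.87, 5.47, 7.53 and 8.50 FPKM under AngII and 11.1, 9.20, 12.3, 10.2 and 7.57 FPKM under saline. Only AngII mouse 5 reached the saline range. Kcnma1, the pore of the large-conductance calcium-activated potassium channel, whose opening relaxes smooth muscle, was chosen after its values were seen. It measured 1.35, 1.08, 1.38, 0.681 and 1.39 FPKM under AngII and 1.95, 1.56, 1.92, 1.82 and 1.78 FPKM under saline, without overlap, at a low level (difference -0.38 ± 0.18, unadjusted p = 0.0465).

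Cacnb2 and Trpm4 were also chosen after their values were seen. Cacnb2, a subunit of voltage-gated calcium channels, ranged over 1.34 to 2.44 FPKM under AngII and 2.24 to 3.38 FPKM under saline. Trpm4, a cation channel that depolarises smooth muscle, ranged over 2.80 to 4.05 FPKM under AngII and 3.24 to 5.56 FPKM under saline. AngII mouse 1 in Cacnb2, and AngII mice 1 and 3 in Trpm4, lay in the saline range. Orai1, the pore of store-operated calcium entry, stood the other way, at 6.39, 10.3, 7.74, 6.76 and 8.38 FPKM under AngII and 7.04, 5.15, 6.39, 7.02 and 4.66 FPKM under saline, with 3 AngII aortas above every saline aorta.

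Among receptors, Adora1 (chr1:134199223-134235431, mm10), the adenosine A1 receptor, which couples to Gi and in fat restrains lipolysis, measured 2.19, 0.669, 3.02, 1.67 and 4.78 FPKM under AngII and 17.7, 4.82, 5.70, 7.997 and 8.57 FPKM under saline. All AngII aortas lay below all saline aortas, narrowly so between AngII mouse 5 and saline mouse 2, and saline mouse 1 was far above the rest. Hcar1, the lactate receptor of adipocytes, was chosen after its values were seen and measured 6.70, 9.69, 7.23, 9.46 and 6.10 FPKM under AngII and 12.2, 9.99, 10.9, 18.7 and 12.8 FPKM under saline, also without overlap. Arrb1, beta-arrestin 1, which desensitises receptors, measured 5.06, 4.35, 8.78, 5.50 and 8.36 FPKM under AngII and 9.50, 6.81, 11.2, 9.82 and 12.3 FPKM under saline, where AngII mice 3 and 5 lay in the saline range. The 34 vasoactive peptides, enzymes and receptors had 20 positive differences and a median of 0.05. It turned negative without AngII mouse 5 (-0.02), saline mouse 2 (-0.02) or saline mouse 5 (-0.07), and was 0.11 without AngII mouse 3 or saline mouse 1.

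In the renin-angiotensin system itself 0 of 17 genes had groups apart, and 12 had a positive difference. The median was 0.07, with 0.01 without AngII mouse 5, 0.05 without saline mouse 2 and 0.12 without saline mouse 3. Agtr1a, the main type 1 receptor gene, measured 8.92, 10.6, 5.70, 9.87 and 11.02 FPKM under AngII and 16.5, 9.05, 11.04, 6.69 and 10.2 FPKM under saline. Ace, the converting enzyme, ranged over 49.9 to 64.8 FPKM under AngII and 41.1 to 63.5 FPKM under saline, and Agtr1b, the second type 1 receptor gene of the mouse, over 0.752 to 2.19 FPKM under AngII and 0.66 to 1.48 FPKM under saline. Agt, the precursor, measured 26.3, 18.1, 4.35, 12.7 and 3.24 FPKM under AngII and 22.1, 14.7, 21.1, 9.84 and 19.9 FPKM under saline, lowest in AngII mice 3 and 5. All of these overlapped. The 2 genes of the list with the smallest p, both peptidases, stood in opposite directions. Mme, neprilysin, which cleaves angiotensin I and natriuretic peptides, measured 8.97, 9.33, 15.03, 12 and 8.41 FPKM under AngII and 13.2, 16.4, 15.7, 13.5 and 14.9 FPKM under saline, with AngII mouse 3 in the saline range. Cma1, a mast cell chymase, measured 15.5, 23.1, 7.61, 22.3 and 21.8 FPKM under AngII and 7.67, 8.17, 11.4, 14.7 and 9.33 FPKM under saline, with AngII mouse 3 again the exception.

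Other mast cell genes were set beside Cma1, of which Mcpt4 and Cpa3 were chosen after their values were seen. Mcpt4, a second chymase, had its 3 highest values in AngII mice 2, 4 and 5, at 16.3, 25.5, 9.99, 24.9 and 30.98 FPKM under AngII and 9.76, 10.2, 16.6, 17.96 and 13.04 FPKM under saline. Cpa3, mast cell carboxypeptidase, ranged over 3.79 to 16.3 FPKM under AngII and 5.52 to 8.78 FPKM under saline, while the tryptase Tpsb2 was 0.478, 0.806, 1.06, 0.768 and 0.651 FPKM under AngII and 0.373, 1.05, 1.87, 5.14 and 4.58 FPKM under saline. Saline mice 4 and 5 were the highest in Tpsb2, and AngII mice 2, 4 and 5 in the other 3 genes. Without AngII mouse 5 the difference of Cpa3 was 0.26, and without AngII mouse 3 it was 0.72. The part of mast cell number in Cma1 was not tested.

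Rab22a and its route were examined as well. Rab22a measured 7.995, 2.65, 9.62, 8.87 and 10.1 FPKM under AngII and 10.3, 8.63, 10.4, 2.82 and 8.57 FPKM under saline. In each group 1 aorta, AngII mouse 2 and saline mouse 4, stood far below the rest, and the others shared a range. Rab11fip5, an effector of Rab11 in recycling endosomes, measured 3.90, 3.41, 5.67, 4.06 and 6.77 FPKM under AngII and 14.2, 13.3, 15.9, 6.14 and 5.36 FPKM under saline, where saline mice 1 to 3 were high and mice 4 and 5 lay in the AngII range. Rab5b, a GTPase of early endosomes, ranged over 5.11 to 8.51 FPKM under AngII and 6.64 to 8.94 FPKM under saline. Of 40 genes of endosomal traffic 23 had a positive difference (median 0.02, between -0.02 and 0.03 when 1 library was left out), and 0 of them stood higher but 3 lower at an unadjusted p under 0.05.

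Fuel metabolism was next, where fat oxidation supplies energy to muscle and brown fat and is controlled by PPAR-alpha. Of 32 fatty acid oxidation genes 30 had a negative difference, against 46.4% of all genes, and 2 a positive one, with a median of -0.24. The level per aorta was 6.03, 6.34, 6.62, 6.41 and 5.52 in AngII aortas 1 to 5 and 6.38, 6.54, 6.68, 5.95 and 6.75 in saline aortas 1 to 5. AngII mouse 5 was the lowest, saline mouse 4 was the next lowest, and the groups overlapped. Without AngII mouse 5 the median was -0.05 and 12 genes were positive. That mouse also had the lowest white adipocyte level of the AngII group and the highest macrophage level. An alternative fit took the white adipocyte and skeletal muscle levels as covariates, and over all alternatives 1 to 12 genes were positive. The part of the macrophage level in the result was not tested. Brown adipocyte genes were negative in 14 of 17 (median -0.27). Their median was -0.09 with 8 positive without AngII mouse 5, -0.17 without saline mouse 2 and -0.18 without AngII mouse 1. Genes of the citric acid cycle and of oxidative phosphorylation, taken as 1 list, were negative in 33 of 42 (median -0.08). Their direction turned without AngII mouse 5 (median 0.06, 34 positive), without saline mouse 5 (0.07, 33 positive) and without saline mouse 2 (0.01, 24 positive), and the lowest median was -0.18, without saline mouse 4.

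Ehhadh, the bifunctional enzyme of peroxisomal beta-oxidation, measured 11.01, 10.4, 8.73, 11.8 and 6.03 FPKM under AngII and 13.6, 12.1, 34.7, 16.6 and 12.5 FPKM under saline. All AngII aortas lay below all saline aortas, and without saline mouse 3, the highest, the difference of -0.75 was -0.49. Crot, which passes peroxisomal products to carnitine, and Acadsb, a dehydrogenase of branched-chain amino acid breakdown, were chosen after their values were seen. Crot measured 14.4, 16.9, 17.6, 18.8 and 17.02 FPKM under AngII and 19.3, 19.3, 19.2, 19.1 and 18.98 FPKM under saline. Acadsb measured 5.40, 6.62, 6.45, 5.18 and 5.30 FPKM under AngII and 7.08, 9.62, 7.23, 12.9 and 7.08 FPKM under saline. Neither gene's groups overlapped, and the saline values of Crot were nearly equal. Leptin, Lep, measured 13.2, 10.6, 13.4, 13.1 and 13.6 FPKM under AngII and 7.34, 7.84, 2.28, 18.8 and 7.23 FPKM under saline. It was steady under AngII, while saline mouse 4 lay above and the other 4 saline aortas below every AngII aorta. Its difference was 0.73, or 0.39 without saline mouse 3.

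Fkbp5 (chr17:28399094-28517527, mm10), the co-chaperone that glucocorticoids and mineralocorticoids induce through their receptors, measured 51.4, 61.5, 24.9, 43.9 and 38.3 FPKM under AngII and 25.9, 13.7, 22.6, 15.1 and 14.8 FPKM under saline. Only AngII mouse 3 lay in the saline range, just under its top. Its difference was 1.20 ± 0.47 (unadjusted p = 0.02). AngII is known to release aldosterone from the adrenal cortex, and hormone levels are not part of these data. Of 18 corticosteroid-responsive genes 13 had a positive difference with a median of 0.23, between 0.09 (without saline mouse 4) and 0.37 (without saline mouse 1) when 1 library was left out. Their level ran over 4.63 to 5.37 in AngII and 4.50 to 5.15 in saline aortas, so the list overlapped where Fkbp5 nearly did not.

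The list of neutrophil and S100 genes gave the largest median of the 54 lists. It is not a list of neutrophil genes alone, since it holds S100 genes such as S100b, which is on the neuron and Schwann cell list as well. Neutrophils carry granule proteins such as myeloperoxidase, which are made in the bone marrow, and large amounts of the calcium-binding S100a8 and S100a9. Of 21 neutrophil and S100 genes 20 had a positive difference, and the median was 0.82. With limma 3 of them stood higher at an unadjusted p under 0.05, against 1.47% of all genes, and 0 lower. In 4 of them all AngII aortas lay above all saline aortas, against 0.333% of all genes. The level was 3.80, 4.02, 3.45, 4.13 and 3.94 in AngII aortas 1 to 5 and 3.002, 3.23, 3.05, 3.28 and 3.04 in saline aortas 1 to 5, without overlap. Leaving out 1 library at a time gave 20 to 21 positive genes, with medians from 0.72 to 0.90. The erythroid list, a measure of blood left in the tissue, had levels of 7.25, 6.98, 5.70, 6.97 and 6.62 under AngII and 6.38, 7.31, 6.92, 6.96 and 6.26 under saline, with 4 of 8 genes positive. The erythroid levels of the groups overlapped, and the lowest erythroid and the lowest neutrophil and S100 level of the AngII group were both in mouse 3. The part of residual blood in the neutrophil and S100 values was not tested.

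S100a8 (chr3:90668978-90670035, mm10) measured 34.7, 43.97, 19.4, 53.2 and 35.4 FPKM under AngII and 11.4, 18.1, 13.02, 15.2 and 9.06 FPKM under saline. The granule genes Ngp, Camp and Mpo, chosen after their values were seen, did not overlap either. Ngp measured 7.48, 16.9, 12.7, 21.2 and 8.81 FPKM under AngII and 5.27, 6.56, 6.61, 6.23 and 3.14 FPKM under saline. Camp, the cathelicidin precursor, ranged over 4.36 to 9.75 FPKM under AngII and 2.41 to 3.70 FPKM under saline. Mpo, myeloperoxidase, measured 7.48, 3.26, 1.49, 1.81 and 3.09 FPKM under AngII and 0.652, 0.69, 1.29, 0.304 and 0.236 FPKM under saline. Mice 2 and 4 led the AngII group in S100a8, Ngp and Camp, whereas mouse 1 led it in Mpo.

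Elane and S100a9 were likewise chosen after their values were seen. Elane, neutrophil elastase, ranged over 1.21 to 12.04 FPKM under AngII and 0.54 to 2.45 FPKM under saline, and S100a9 over 0.498 to 37.9 FPKM under AngII and 0.848 to 21.7 FPKM under saline. Csf3r, the receptor for granulocyte colony-stimulating factor, measured 2.06, 1.79, 1.20, 2.03 and 0.58 FPKM under AngII and 0.402, 0.777, 0.105, 0.779 and 0.0745 FPKM under saline. In these 3 genes the groups overlapped. S100a9 was lowest in AngII mouse 1, where S100a8, its partner protein, was high. Without AngII mouse 1 the difference was 2.31 for S100a9, against 1.48 with it, and 0.61 for Elane, against 0.99.

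Macrophage genes had 24 of 30 positive differences (median 0.39), and 1 aorta weighed heavily in them. The level was 4.24, 4.39, 4.12, 4.29 and 5.24 in AngII aortas 1 to 5 and 4.29, 4.03, 4.50, 4.40 and 3.51 in saline aortas 1 to 5. AngII mouse 5 was far above all others and saline mouse 5 the lowest. The median was 0.16 without AngII mouse 5 and 0.17 without saline mouse 5. Cd68, a macrophage marker chosen after its values were seen, was 29.99, 34.2, 21.8, 23.3 and 106 FPKM under AngII and 27.9, 20.6, 29.4, 33.8 and 14.9 FPKM under saline. Trem2, a receptor of lipid-laden macrophages, was 3.19, 2.17, 1.86, 2.94 and 21.96 FPKM under AngII and 0.897, 2.10, 1.34, 2.46 and 1.26 FPKM under saline, and the chemokine Ccl7 was 1.03, 2.99, 0.981, 2.48 and 16.99 FPKM under AngII and 0.604, 0.736, 1.08, 2.48 and 1.03 FPKM under saline. In each of them AngII mouse 5 stood alone, and without it their differences were 0.14, 0.46 and 0.38. Cell cycle genes had the same dependence, with 36 of 44 positive, but 14 without AngII mouse 5 and 19 without saline mouse 5.

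**Figure D4:**
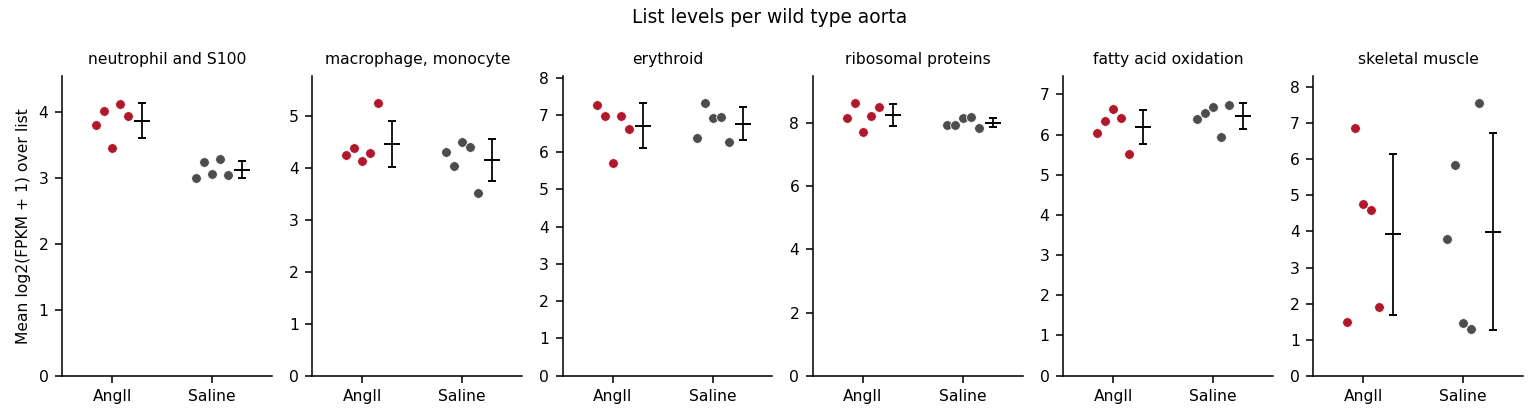
Mean log2(FPKM + 1) over the tested genes of 6 lists (vertical axes, from 0) in each wild type aorta, AngII left and saline right, with mean ± SD. Neutrophil and S100 genes do not overlap between the groups, 1 AngII aorta stands apart in macrophage genes, and skeletal muscle genes scatter widely in both groups.

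Ribosomal protein genes, whose messages make up a large part of cellular mRNA, were represented by a list of 65 that does not hold all of them. A positive difference was found in 64 of the 65, with a median of 0.20, but 0 of the list had an unadjusted p under 0.05 and 0 were apart. The level was 8.18, 8.63, 7.73, 8.22 and 8.53 in AngII aortas 1 to 5 and 7.94, 7.95, 8.18, 8.19 and 7.86 in saline aortas 1 to 5. AngII mice 2 and 5 were the highest and AngII mouse 3 the lowest of all, so the groups overlapped. Rpl30, the member of the list with the smallest p, measured 287, 379, 206, 257 and 266 FPKM under AngII and 274, 222, 90.2, 248 and 104 FPKM under saline. Over all alternatives in processing the number of positive genes was 61 to 64. Outside the list, 2 ribosomal protein genes that the rule for naming took stood in opposite directions. Rps27a measured 25.5, 43.8, 12.6, 336 and 363 FPKM under AngII and 25.1, 4.12, 17.98, 5.04 and 22.6 FPKM under saline, a difference of 2.48 ± 0.85 (unadjusted p = 0.00918). Rpl29 measured 4.46, 1.36, 4.81, 1.15 and 1.97 FPKM under AngII and 21.2, 131, 15.6, 2.46 and 26.2 FPKM under saline, a difference of -2.65 ± 1.12 (unadjusted p = 0.03). AngII mice 4 and 5 were far above all others in Rps27a and saline mouse 2 in Rpl29, and both genes' groups overlapped. All members of the list were read from the same 10 libraries, so the count is not that of independent observations. Leaving out AngII mouse 2 put the median at 0.11 and leaving out AngII mouse 3 put it at 0.32.

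At the level of single transcripts 0 of 34149 (0%) had an adjusted p under 0.05, and 1460 (4.28%) had an unadjusted p under 0.05. The smallest adjusted p, 0.198 with limma, belonged to Map4k1-202, a transcript of the kinase HPK1 that is classed as subject to nonsense-mediated decay. It measured 2.14, 7.80, 5.53, 1.98 and 7.76 FPKM under AngII and 1.99, 0.0152, 0.0245, 0.202 and 0.147 FPKM under saline. Saline mouse 1 had an AngII-like value and the other 4 were near 0.

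The next 4 annotated transcripts by p were all lower. Ech1-203, a retained-intron transcript of a dienoyl-CoA isomerase of beta-oxidation, measured 2.77, 1.97, 2.47, 2.003 and 1.02 FPKM under AngII and 6.95, 14.1, 4.34, 9.19 and 6.85 FPKM under saline, without overlap. Dnm2-204, a coding transcript of dynamin 2, which pinches off endocytic vesicles, measured 0.0127, 0.0267, 0.0617, 0.0222 and 0.0213 FPKM under AngII and 1.82, 1.08, 1.46, 2.13 and 0.709 FPKM under saline. Slc43a1-202 measured 0.0152, 0.0479, 0.0569, 0.0586 and 0.709 FPKM under AngII and 2.77, 2.04, 3.07, 2.03 and 1.65 FPKM under saline. Morf4l2-212 measured 0.128, 1.10, 0.0964, 1.38 and 0.166 FPKM under AngII and 4.50, 28.4, 19.6, 4.95 and 4.34 FPKM under saline. None of these 4 overlapped between the groups, which their choice by smallest p makes likely. The share of all transcripts that come apart was not counted. Each of the 4 is one of several transcripts of its gene among which reads are divided.

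Division among transcript models bears on gene sums too. In 14 of the 143 genes that the rule for naming took, protein-coding transcripts held under 50% of the level. Plpp5, a lipid phosphatase, measured 11.98, 10.7, 10.1, 10.5 and 12.7 FPKM under AngII and 4.25, 8.69, 7.40, 7.20 and 7.46 FPKM under saline over all transcripts, without overlap. Its coding transcripts, 35.0% of the level, measured 2.89, 3.08, 3.03, 3.46 and 3.20 FPKM under AngII and 1.54, 2.30, 4.24, 3.92 and 4.17 FPKM under saline, with overlap. Ganc, a glucosidase, measured 7.29, 6.41, 7.83, 7.23 and 5.26 FPKM under AngII and 10.1, 10.8, 11.9, 8.20 and 11.5 FPKM under saline over all transcripts, again apart. Its coding transcripts, 46.9% of the level, measured 4.51, 4.63, 3.01, 1.86 and 2.71 FPKM under AngII and 5.89, 1.78, 10.1, 2.27 and 3.79 FPKM under saline, with wide overlap.

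In 576 of the tested genes a library lay under 10% of the median of its own wild type group, and other genes had libraries far above their group. The mitochondrial gene mt-Cytb, which encodes cytochrome b, measured 8049, 8949, 1.95, 2.88 and 3.12 FPKM under AngII and 2.75, 0.896, 3.79, 5.55 and 2.29 FPKM under saline, so that AngII mice 1 and 2 were far above the other 8 aortas. Its difference of 4.43 was 2.77 without AngII mouse 1 and 2.73 without AngII mouse 2. Pelo, a factor that rescues stalled ribosomes, measured 0.00808, 0.0085, 0.00909, 0.00851 and 0.00815 FPKM under AngII and 9.16, 7.23, 0.00848, 8.77 and 0.00822 FPKM under saline, with 3 saline aortas high and all others near 0. Pcbp1, an abundant RNA-binding protein, measured 20.2, 7.79, 0.191, 2.43 and 12.3 FPKM under AngII and 93, 90.2, 102, 112 and 0.194 FPKM under saline, at nearly 0 in AngII mouse 3 and saline mouse 5. Snap47, a SNARE of vesicle fusion, measured 3.96, 3.78, 3, 7.41 and 3.75 FPKM under AngII and 27.2, 23.1, 24.7, 3.31 and 21.5 FPKM under saline, where saline mouse 4 had an AngII-like value. Without saline mouse 4 its difference of -1.76 was -2.27 with an adjusted p of 0.0127, and under the other alternatives the adjusted p ran from 0.14 to 1. The part of unannotated models, which held 10.6% to 12.9% of the FPKM of a library, in these jumps was not tested.

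**Figure D5:**
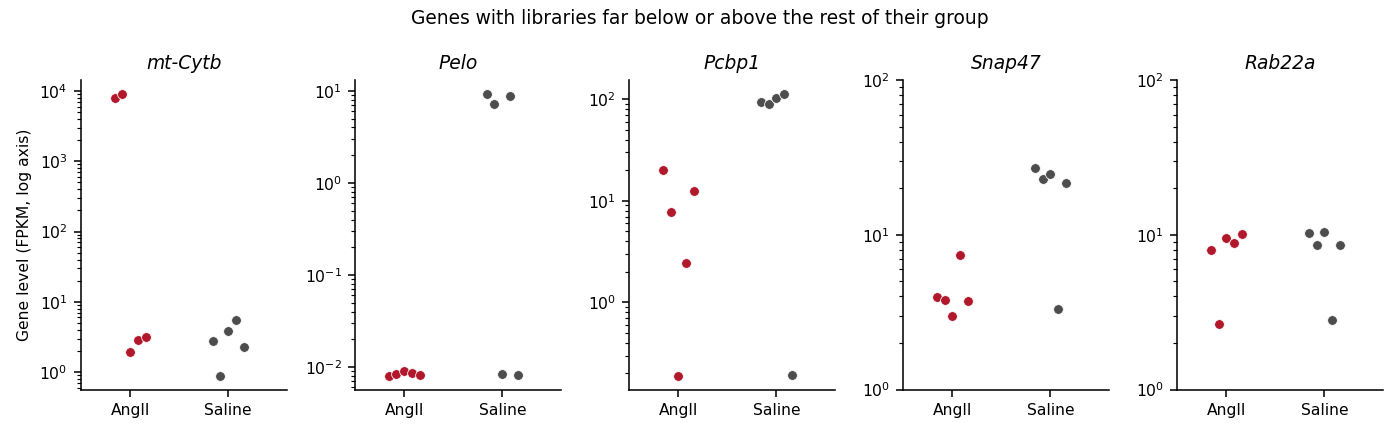
Level in FPKM (log axes) of 5 genes in each wild type aorta, AngII left and saline right, 1 point per mouse. In mt-Cytb 2 AngII aortas, and in Pelo 3 saline aortas, lie orders of magnitude above the others, while in Pcbp1, Snap47 and Rab22a single aortas lie far below others of their group.

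The same values in Rab22a knockout aortas were set beside these, with other control animals. The interaction of genotype and AngII was called in 0 of 15010 genes (0%), and 501 (3.34%) had an unadjusted p under 0.05, with 0.995 as limma's smallest adjusted p. None of the differences below is therefore shown to depend on the genotype. Genes chosen by their values in wild type aortas tend to differ less in other animals, also where the genotype has no effect. Igfbp2 had a difference of 1.71 in wild type and 1.82 in knockout aortas, and Tnfrsf12a of 0.90 in wild type and 0.94 in knockout aortas. Hes1 had 0.56 in wild type and -0.02 in knockout aortas, and Herpud1 0.75 in wild type and -0.12 in knockout aortas. Fyco1 had -1.66 in wild type and 0.13 in knockout aortas, and Fkbp5 1.20 in wild type and -0.61 in knockout aortas. In the lists, positive differences were found in 20 of 21 neutrophil and S100 genes in wild type and 8 in knockout aortas (medians 0.82 and -0.36). For the ribosomal protein list the counts were 64 and 9 of 65 (medians 0.20 and -0.21), and for fatty acid oxidation 2 and 25 of 32 (medians -0.24 and 0.26). For elastic fibre and matricellular genes they were 25 and 26 of 31 (medians 0.33 and 0.65). Differences between the genotypes in these lists were not tested.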

How the data were processed

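RNA sequencing of abdominal aorta was read from 1 table per library. The authors deposited values read as FPKM for 126719 transcript models, 110082 with Ensembl identifiers and 16637 unannotated. The unit was taken from the values, since after multiplication by model length at least 99.3% of low values lay within 0.1 read of a whole count. Build mm10 and limma are named in the submitters' processing notes, while the aligner is not given in the sources used here. Total RNA with ribosomal depletion keeps intron-holding and noncoding transcripts, and FPKM depends on the transcript models among which reads are divided. Whether counting used strand is not stated, so reads of antisense or overlapping genes cannot be told apart.

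FPKM of the 109913 models matched to GENCODE M21 was summed over 42890 genes, and 169 Ensembl models did not match. Testing took in genes that reached 1 FPKM in 5 or more of the 20 libraries (15010 genes, 34149 transcripts) on log2(FPKM + 1) with limma 3.58.1 in R 4.3.3, with 1 mean per group and eBayes with trend and robust. Genes were called at a two-sided Benjamini-Hochberg adjusted p under 0.05. The pseudocount understates differences of low genes. On data simulated for this comparison, with 200 changed genes among 15010, 55% of those of log2 1 and 89% of those of log2 2 were called. Of the calls 5.88% were false. The simulation drew independent normal noise for each gene and changed only genes above a minimum mean level. It holds neither variation shared between genes nor jumps to near 0, so these rates need not hold for the real libraries. The members and the 54 lists were chosen with earlier results of these data known.

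Named genes were the 15 higher and 15 lower genes of smallest p with a mean of at least 2 FPKM, the 10 largest each way at an unadjusted p under 0.05, 2 members of each list, Rab22a and the genes of the hormone, and 5 transcripts. Some named genes and 1 list are not reported here. Alternatives were quantile normalization, median-ratio scaling, pseudocount 0.1, no filter, a filter at 5 FPKM, wild type libraries alone, a replicate block, no trend or robust fit, library weights, tissue covariates, protein-coding genes, voom on recovered reads and leaving out each library. Chosen after seeing the data were leaving out genes with a library under 10% of its group median and summing protein-coding transcripts alone. Replicate numbers were not taken as pairs. Deviations of same-numbered AngII and saline aortas correlated at -0.03, 0.14, -0.12, -0.17 and -0.47, and those of differently numbered aortas at -0.205 to 0.393. Such correlations cannot exclude that same-numbered aortas were handled together. Figures used matplotlib 3.10.9 in Python 3.11.15.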

Additional observations from a re-analysis of the deposited data

Results flagged for a closer look

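In 228 sets of 5 aortas, 1 for each of 86 named genes and 28 lists in each group, a value lay far from the other 4 of its group in 29 (20 in AngII and 9 in saline), by Dixon's test with a critical ratio of 0.71. Chance gives about 1 set in 20 for normal values in sets chosen without regard to them. These sets are of FPKM and include genes named after their values were seen, so that rate does not hold for them. AngII mice 1 and 5 held 6 of them each, and AngII mouse 2 held 4.

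AngII mouse 1 was the high value in Pgf (12.5 FPKM), Tnfrsf12a (87.7 FPKM), Ccn5 (131 FPKM), Rnf11 (39.0 FPKM), Acta2 (3128 FPKM) and the level of the collagen processing list (4.60). AngII mouse 5 was the high value in Hspa5 (129 FPKM), Trem2 (22.0 FPKM), Ccl7 (17.0 FPKM), Cd68 (106 FPKM) and the levels of the macrophage (5.24) and cell cycle (3.19) lists. AngII mouse 3 was the high value in Tsc2 (14.6 FPKM) and the ion channel level (3.09), and the low value in B3galt2 (2.11 FPKM). AngII mouse 2 was the high value in Stat5a (13.6 FPKM) and Acta1 (1723 FPKM), and the low value in Lep (10.6 FPKM) and Rab22a (2.65 FPKM). AngII mouse 4 was the high value in Snap47 (7.41 FPKM).

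In the saline group, mouse 3 was the high value in Herpud1 (23.8 FPKM), Ehhadh (34.7 FPKM) and Slc43a1 (13.9 FPKM). Saline mouse 4 was the low value in Snap47 (3.31 FPKM) and Rab22a (2.82 FPKM) and the high value in Ccl7 (2.48 FPKM). Saline mouse 5 was the high value in Timp1 (6.51 FPKM) and Acta1 (3084 FPKM) and the low value in Pcbp1 (0.194 FPKM).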

How the results depend on the processing

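Over 24 alternatives, 10 of them leaving out 1 library, 2033 of 2047 recomputed differences of 86 named genes kept their direction, 14 reversed and 2 were newly called (Fyco1 with library weights, Snap47 without saline mouse 4). Many of these genes were chosen by their values in the same data. Where a gene's groups do not overlap, leaving out 1 library cannot reverse its direction. The count is therefore no measure of how sure the directions are. Of 1295 list medians 1292 stayed within 1 SD of the main median, the SD being that of the list level between aortas of a group. That SD was large beside many medians, so a list could change sign and still count as within it. Cell cycle went from 0.13 to -0.098 without AngII mouse 5. Citric acid cycle and oxidative phosphorylation genes went from -0.077 to 0.071 without saline mouse 5. Skeletal muscle went from 0.0068 to -0.68 without saline mouse 4. The 0 called genes became 2 with library weights, 11 with no filter and 0 to 1 without 1 library, and the 0 called transcripts 12 and 0 to 5 with the last 2 of these settings. At an unadjusted p under 0.05 stood 691 genes higher and 839 lower with library weights, and 1744 and 1043 with no filter. Those numbers were 155 to 411 and 143 to 381 without 1 library. The setting with no filter tests more genes than the 15010 of the main fit, and a filter at 5 FPKM fewer. Counts under these settings, here and for genes called or apart, are therefore not shares of the same number. Higher genes numbered 343 with tissue covariates and 341 with wild type libraries alone, and lower genes 149 with a filter at 5 FPKM. Genes apart numbered 125 higher and 70 lower with no filter, and 33 higher with a filter at 5 FPKM. They numbered 69 to 331 higher and 55 to 160 lower without 1 library, where groups of 4 and 5 come apart more often by chance. The interaction had 1 call with no filter. With a filter at 5 FPKM the neutrophil and S100 median was 0.60 and that of 2 sex-linked genes 0.50. Without 1 library that of nitric oxide and cyclic GMP genes lay between -0.18 and -0.069. The replicate block, which fits a term for each replicate number, left 0 genes called, with 204 higher and 239 lower at an unadjusted p under 0.05. Without 1 library, differences ran across 0 for 5 genes, from -0.039 to 0.22 for Hspa5, -0.088 to 0.13 for Agtr1b, -0.34 to 0.24 for Rab22a, -0.15 to 0.17 for Acta2 and -0.89 to 1.75 for Acta1. The causes were not tested. With 5 aortas a group and muscle and fat beside the wall, the design recovers large differences better than small ones.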
